A study of Mus musculus with 15 samples.

Results

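NF-kB genes were read under 5 treatments in A.E7, a clone of mouse CD4 T helper cells. The set was chosen by name, with earlier results of these data known. It holds the subunits Nfkb1, Nfkb2 and Relb, the IkB proteins Bcl3, Nfkbib and Nfkbiz, and the signalling or feedback genes Malt1, Traf1, Birc2 and Tnfaip3. A probe set belonged to it when its platform annotation gave exactly 1 gene symbol and that symbol was 1 of these 10. This found 14 probe sets of 9 genes, among 29131 probe sets with 1 symbol and 36701 in all; Nfkb1 was not analysed here. Of the 14, 11 lay on chip type A, 2 on B and 1 on C.

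All cells were of the same clone, so the arrays describe 1 clone and not T helper cells at large. The inhibitor arms were anti-TCR with cyclosporin A (CSA), which blocks the phosphatase calcineurin, anti-TCR with a protein kinase C inhibitor whose compound name is not given (PKCi), and anti-TCR with rapamycin, PD98059 and SB203580 together (Combo), which block mTOR, MEK and p38. The other arms were anti-TCR alone, called anergic in the array titles, and mock stimulation. No arm held an inhibitor without anti-TCR. Each RNA was a pool of 2, 4 and 6 h, so a value is an average over these times. Each pool was hybridised once to each chip type, and chip types hold different probe sets, so no value has a replicate, an SD over cultures or a test.

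NF-kB is a family of dimers built from Rel proteins. Resting T cells hold them in the cytoplasm bound to IkB proteins, or as the long precursors that Nfkb1 and Nfkb2 encode. Receptor engagement activates protein kinase C theta, which leads through Bcl10 and Malt1 to the IkB kinase, and IkB breakdown releases the dimers. Many of their targets act back on the pathway, among them Nfkbia, Nfkb2, Relb, Bcl3 and Tnfaip3. Calcineurin acts mainly through NFAT, a separate factor that shares many promoters with NF-kB.

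Intensities are linear array values. Each chip type was given a floor, the median over its 5 arrays (51.1 on A, 69.5 on B and 55 on C), to which lower values were raised. A pair of values was measured when the brighter one was at least 4 times that floor, which is 204.4 on A, 278 on B and 220 on C. A pair could thus be measured through its brighter array alone, in members, lists and background alike. "Rose" and "fell" are used for measured pairs at least 2-fold apart. Folds are written "at least" where the dimmer array was not above the floor. Between 17.4% and 23.0% of the probe sets of an array reached 4 times the floor. Where a gene was read on more than 1 chip type, its log2 ratios scattered with a technical SD of 0.48 (CSA, 792 pairs), 0.71 (PKCi, 867 pairs) and 0.55 (Combo, 839 pairs) against anti-TCR alone, and of 0.76 for anti-TCR alone against mock (848 pairs). This spread covers arrays and probes and not cultures. All 6 T helper markers looked up (Cd3d, Cd3e, Cd3g, Cd4, Cd28 and Thy1) reached 4 times the floor, against 0 of 4 B cell markers, 0 of 2 CD8 markers and 1 of 6 macrophage and dendritic cell markers (Cd14).

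Of the 14 probe sets, 10 reached 4 times the floor in at least 1 treatment, and these 10 cover all 9 genes. The other 4 (the second Relb and Birc2 probe sets and 2 further ones of Nfkbiz) stayed below it in all 5 arrays and are not read further; 3 of them carry the f suffix, given to probe sets with sequence in common with other genes. Of the 10, 6 were highest with Combo and 7 were lowest with mock. These counts were not made over all probe sets, so they describe the members and do not set them apart.

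**Figure D1:**
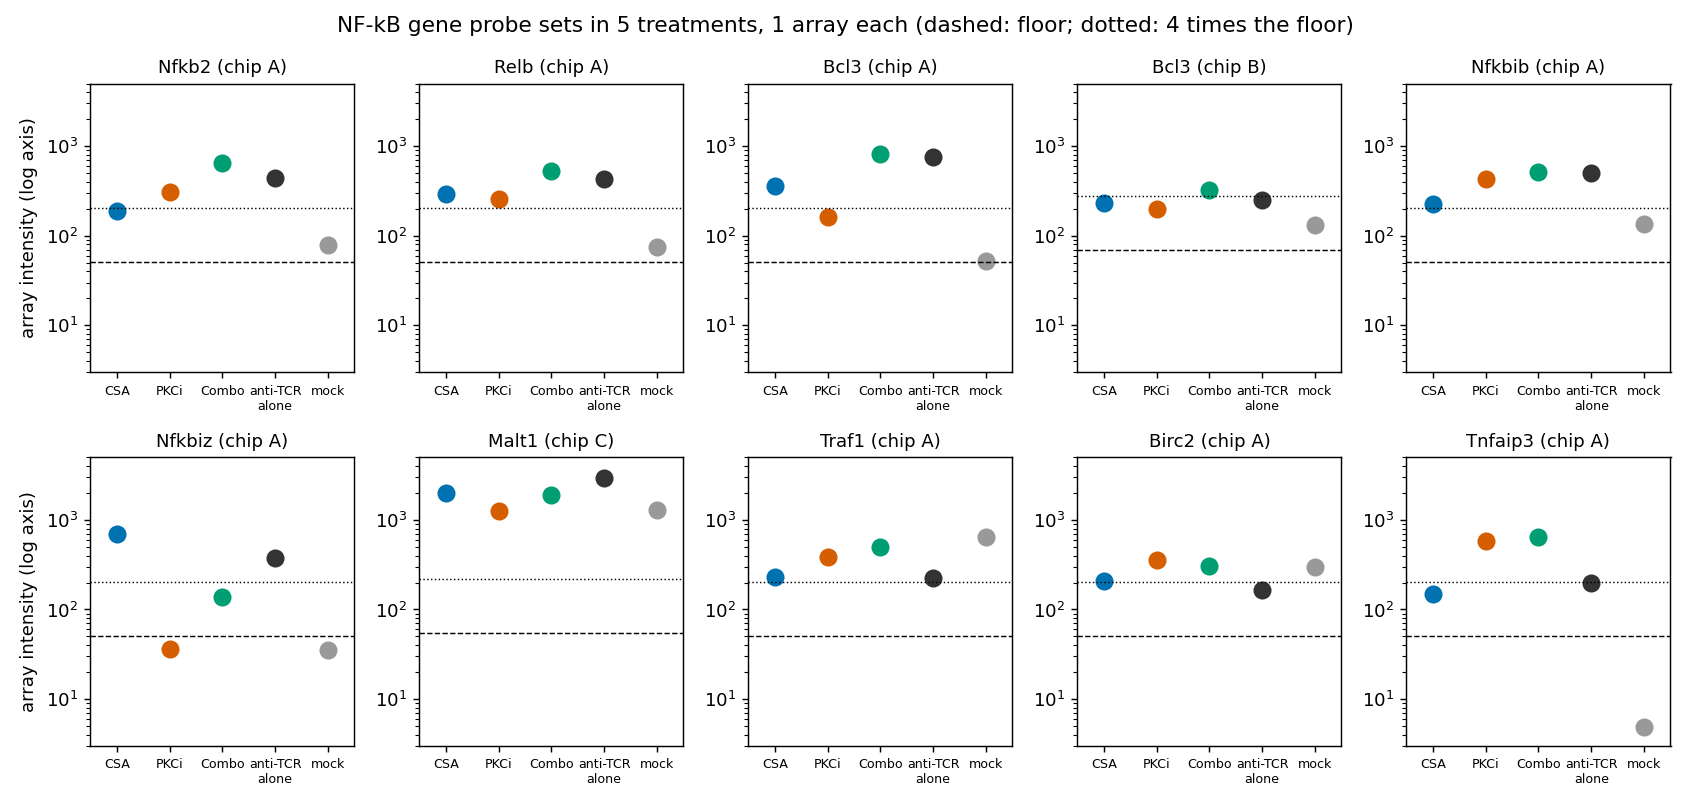
Array intensity (log axis) of the 10 NF-kB gene probe sets that reached 4 times the floor, with 1 point per array for CSA, PKCi, Combo, anti-TCR alone and mock. The dashed line is the floor and the dotted line 4 times the floor; Nfkbiz is at or below the floor with PKCi and mock, and Tnfaip3 is highest with PKCi and Combo.

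Promoter windows of 6 of the 9 genes were taken from the RefSeq table (build GRCm38.p6), 10 windows in all. Each ran from 250 bases before to 50 after an annotated start site. No window was found for Relb or Nfkbiz, and Malt1 was not searched. Windows are shown for some genes that moved differently on the arrays. Nfkb2 and Bcl3 rose with anti-TCR alone, Tnfaip3 was highest with PKCi and Combo, and Traf1 fell with anti-TCR alone. Nfkbib, which also rose with anti-TCR alone, is not shown, nor is Birc2. Capitals mark matches on either strand to the NF-kB consensus decamer, which is GGG, a purine, any pair of bases, a pair of pyrimidines, then CC; overlapping matches count once.
Nfkb2, chr19:46304487-46304786, plus strand: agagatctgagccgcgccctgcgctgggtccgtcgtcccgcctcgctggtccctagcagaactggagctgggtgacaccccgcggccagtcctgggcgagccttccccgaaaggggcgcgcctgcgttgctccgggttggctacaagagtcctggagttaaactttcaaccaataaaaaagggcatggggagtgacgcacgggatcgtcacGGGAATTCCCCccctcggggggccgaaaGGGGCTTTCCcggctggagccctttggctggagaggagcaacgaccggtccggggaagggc
Nfkb2, chr19:46305445-46305744, plus strand: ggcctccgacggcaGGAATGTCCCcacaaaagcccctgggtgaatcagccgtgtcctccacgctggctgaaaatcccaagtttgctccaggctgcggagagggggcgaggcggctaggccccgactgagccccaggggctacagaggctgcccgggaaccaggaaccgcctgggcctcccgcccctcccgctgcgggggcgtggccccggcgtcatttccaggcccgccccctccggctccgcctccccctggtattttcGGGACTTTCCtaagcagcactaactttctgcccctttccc
Bcl3, chr7:19822706-19823005, minus strand: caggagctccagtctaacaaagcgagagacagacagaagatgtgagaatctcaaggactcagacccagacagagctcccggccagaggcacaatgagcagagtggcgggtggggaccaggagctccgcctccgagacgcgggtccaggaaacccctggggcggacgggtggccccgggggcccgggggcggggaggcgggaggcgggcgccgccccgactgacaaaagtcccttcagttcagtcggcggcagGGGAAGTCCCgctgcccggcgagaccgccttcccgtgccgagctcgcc
Tnfaip3, chr10:19015361-19015660, minus strand: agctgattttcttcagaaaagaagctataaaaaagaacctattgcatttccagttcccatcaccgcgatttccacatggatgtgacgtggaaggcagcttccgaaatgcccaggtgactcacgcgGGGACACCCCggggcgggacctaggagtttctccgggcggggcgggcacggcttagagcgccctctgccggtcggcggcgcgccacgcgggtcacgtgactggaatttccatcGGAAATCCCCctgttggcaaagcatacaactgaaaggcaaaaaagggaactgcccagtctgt
Traf1, chr2:34961723-34962022, minus strand: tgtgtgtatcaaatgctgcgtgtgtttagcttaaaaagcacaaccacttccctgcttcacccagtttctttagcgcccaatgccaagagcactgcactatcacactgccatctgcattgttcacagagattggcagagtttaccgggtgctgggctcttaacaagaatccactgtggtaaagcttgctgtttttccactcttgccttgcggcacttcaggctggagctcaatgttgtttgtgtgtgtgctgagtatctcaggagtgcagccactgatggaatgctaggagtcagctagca

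The consensus was found in all 3 windows of Nfkb2, in the Bcl3 window and in 1 of 2 windows of Tnfaip3. The 3 Nfkb2 windows are not independent, since the second and the third overlap and share the stretch GGGACTTTCC. No match lay in the windows of Traf1, Nfkbib or Birc2. Of these, Nfkbib rose with anti-TCR alone, as Nfkb2 and Bcl3 did. Of 32851 mouse windows of the same length, 8.46% held at least 1 match and 0.521% held 2 or more. The first 2 Nfkb2 windows and the first Tnfaip3 window held 2 each. In the first Nfkb2 window the matches lay at bases -39 to -29 and -11 to -2 from the start site, in Bcl3 at 3 to 12, and in Tnfaip3 at -125 to -116 and -12 to -3. The NFAT core GGAAA, searched on both strands, occurred in 9 of the 10 windows and in 61.3% of all windows; 1 such match falls inside a NF-kB match in each Nfkb2 window and in Tnfaip3. The AP-1 motif TGANTCA occurred once in the second Nfkb2 window and once in the first Tnfaip3 window, against 7.81% of all windows. These matches describe letters in a window and not binding.

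**Figure D2:**
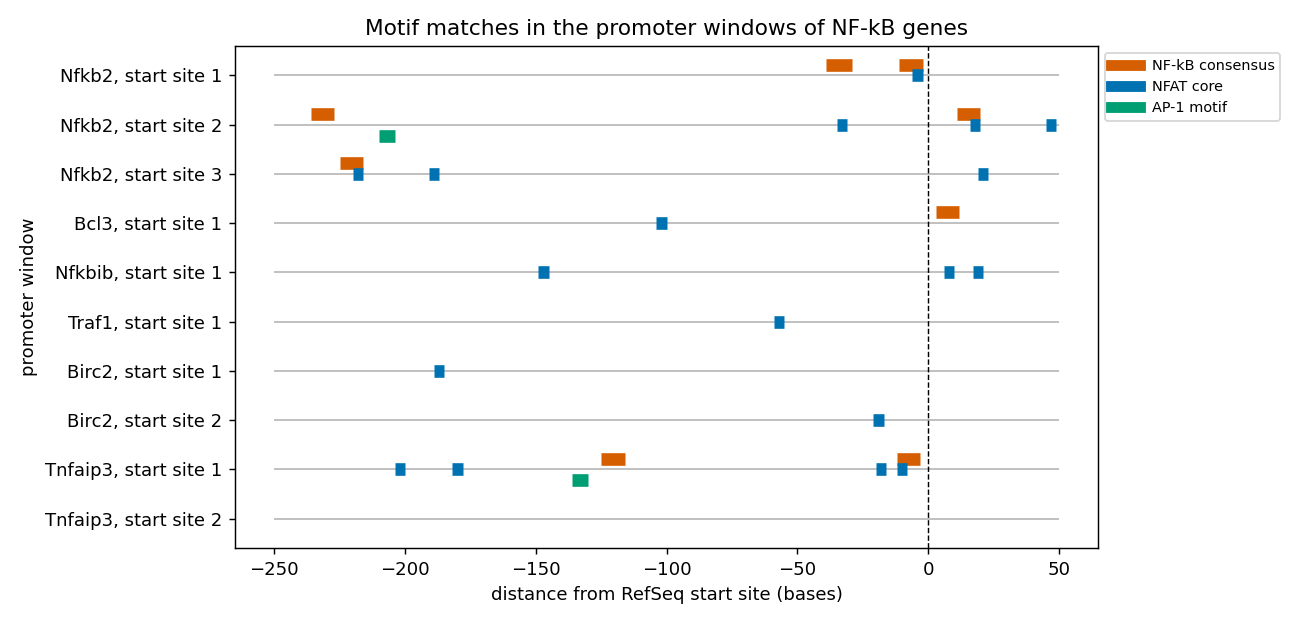
Position of motif matches (bars) in the 10 promoter windows, by distance in bases from the RefSeq start site (dashed line). NF-kB consensus matches are in the windows of Nfkb2, Bcl3 and the first start site of Tnfaip3, and in none of Nfkbib, Traf1 or Birc2.

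The subunit gene Nfkb2, which encodes p100, the precursor of p52, read 188.5 with CSA, 310.5 with PKCi, 657.3 with Combo, 436.5 with anti-TCR alone and 79.1 with mock. It rose 5.52-fold with anti-TCR alone against mock. CSA lowered it 2.32-fold against anti-TCR alone, and the share of its log2 rise that remained was 50.8% with CSA, 80.1% with PKCi and 124% with Combo. PKCi and Combo left it within 2-fold of anti-TCR alone, at log2 ratios of -0.49 and 0.59.

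Relb encodes the Rel protein that pairs mainly with p100 and p52. Its values were 292.6 with CSA, 255.5 with PKCi, 525.2 with Combo, 425.1 with anti-TCR alone and 75.7 with mock. It rose 5.62-fold with anti-TCR alone against mock, close to Nfkb2, and all 3 inhibitor arms stayed above mock by 3.87-fold (CSA), 3.38-fold (PKCi) and 6.94-fold (Combo). No inhibitor moved it 2-fold from anti-TCR alone, with log2 ratios of -0.54 for CSA, -0.73 for PKCi and 0.31 for Combo. Nfkb2 passed the 2-fold limit with CSA and Relb did not; whether these responses differ could not be tested with 1 array each.

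Bcl3 encodes a nuclear IkB protein that binds p50 and p52 dimers on DNA. It read 356.3 with CSA, 160 with PKCi, 828.8 with Combo, 761.5 with anti-TCR alone and 52 with mock. Its rise with anti-TCR alone against mock, 14.6-fold, was 5.13 times the technical SD on the log2 scale. The mock value lies just above the floor of 51.1, and with 2 times the floor the log2 ratio was 2.90 in place of 3.87. PKCi lowered it 4.76-fold and CSA 2.14-fold against anti-TCR alone, while Combo left it at a log2 ratio of 0.12. The second Bcl3 probe set, on chip type B, kept the same order of treatments with smaller differences. It read 229.2 with CSA, 198.8 with PKCi, 325.6 with Combo, 247.9 with anti-TCR alone and 130.1 with mock, and only the Combo value reached 4 times the floor. Its log2 ratio for anti-TCR alone against mock was 0.93, against 3.87 on the first probe set, and for PKCi against anti-TCR alone -0.32, against -2.25.

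Nfkbib encodes IkB beta, a cytoplasmic inhibitor. It read 224.8 with CSA, 435.3 with PKCi, 519.5 with Combo, 508.1 with anti-TCR alone and 134.9 with mock. The CSA value stood apart from the other stimulated arms: it lay 2.26-fold below anti-TCR alone, and 38.5% of the log2 rise remained. PKCi left 88.3% and Combo 102%. With anti-TCR alone Nfkbib rose 3.77-fold against mock.

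Nfkbiz encodes IkB zeta, a nuclear IkB protein that is needed for a subset of NF-kB targets. Its values were 699.9 with CSA, 36.5 with PKCi, 136.5 with Combo, 377.5 with anti-TCR alone and 35 with mock. With PKCi it was as low as with mock, both below the floor. Against anti-TCR alone PKCi lowered it at least 7.39-fold and Combo 2.77-fold. With a minimum of 8 times the floor, the calls of anti-TCR alone against mock, PKCi and Combo were all lost. CSA was the highest array, 1.85-fold above anti-TCR alone (log2 ratio 0.89) and so short of the 2-fold limit, and at least 13.7-fold above mock. Of the 10 probe sets, only that of Nfkbiz had its highest value with CSA. The other Nfkbiz probe sets stayed below the floor in every array, at most 33.8 on chip type A and 29.8 on B. The changes of Nfkbiz thus rest on a lone probe set.

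Malt1 encodes a paracaspase that binds Bcl10 in signalling from the T cell receptor. It read 2008.9 with CSA, 1270.5 with PKCi, 1919.1 with Combo, 2912.3 with anti-TCR alone and 1292.9 with mock, and was bright in all 5. It rose 2.25-fold with anti-TCR alone against mock and fell 2.29-fold with PKCi against anti-TCR alone, to the mock level (log2 ratio of PKCi to mock -0.03). These 2 changes are 1.55 and 1.68 times the technical SD. CSA and Combo left 54.3% and 48.6% of the log2 rise, and neither lay 2-fold from anti-TCR alone.

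Tnfaip3 encodes A20, a ubiquitin-editing enzyme that shuts off NF-kB signalling and is itself a known NF-kB target. It read 147.4 with CSA, 589.4 with PKCi, 646.9 with Combo, 198.9 with anti-TCR alone and 4.9 with mock. PKCi raised it 2.96-fold and Combo 3.25-fold against anti-TCR alone, and both arms lay at least 11.5-fold and 12.7-fold above mock. Anti-TCR alone lay just under 4 times the floor, so its rise against mock, at least 3.89-fold, was not counted. With 3 times the floor as the minimum, a setting chosen after seeing the data, or with quantile normalization, it was. CSA against anti-TCR alone was not measured, since both values were below 204.4.

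Traf1 encodes an adaptor of TNF receptors and Birc2 the ubiquitin ligase cIAP1, which restrains the noncanonical pathway by degrading the kinase NIK. Traf1 read 230.9 with CSA, 381.7 with PKCi, 499.4 with Combo, 222.8 with anti-TCR alone and 649.9 with mock. It fell 2.92-fold with anti-TCR alone and 2.81-fold with CSA, both relative to mock, and rose 2.24-fold with Combo against anti-TCR alone. Birc2 read 205.6 with CSA, 354 with PKCi, 304.3 with Combo, 164.1 with anti-TCR alone and 301 with mock. Its log2 ratio for anti-TCR alone against mock was -0.88, short of 2-fold. PKCi raised it 2.16-fold against anti-TCR alone, a call lost with quantile normalization; Combo, at 0.89, passed 2-fold with median scaling. For both genes the CSA array was near anti-TCR alone (log2 ratios 0.05 and 0.33).

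**Figure D3:**
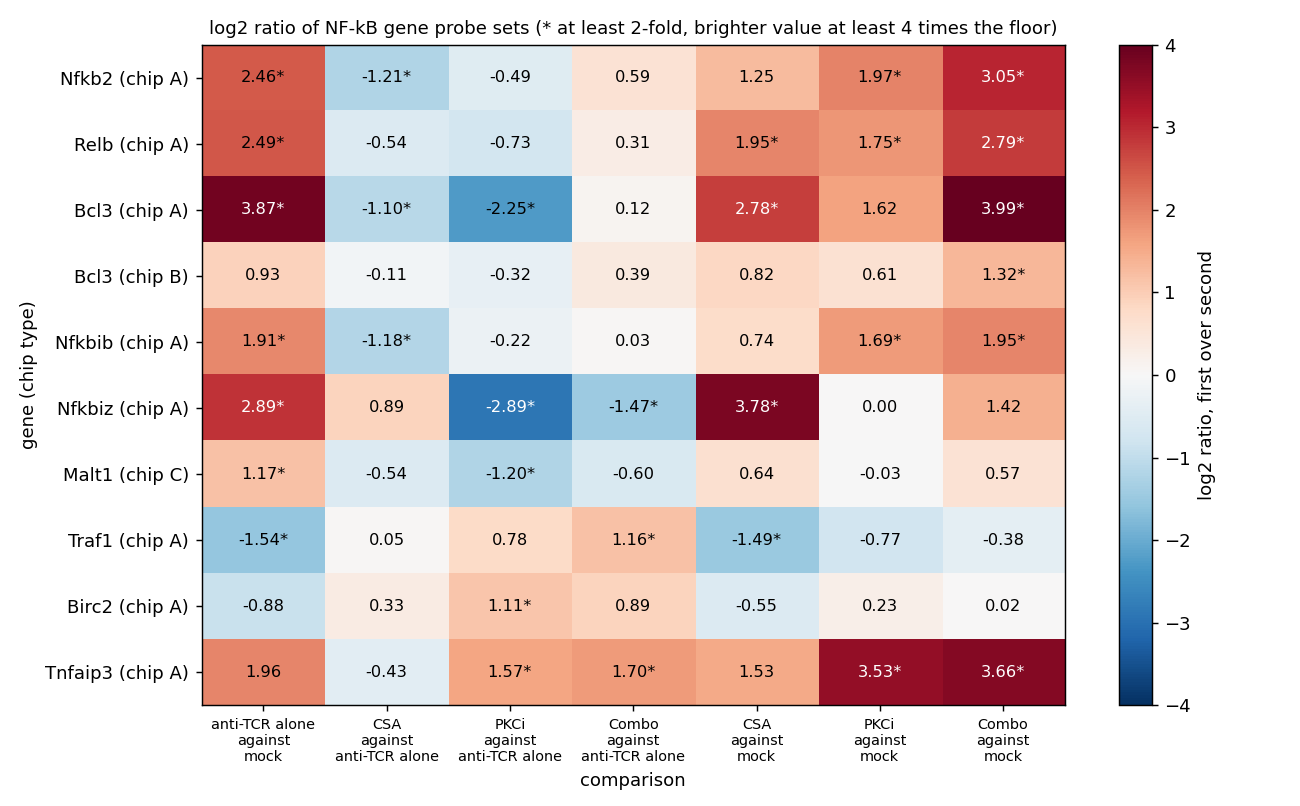
Log2 ratios of the 10 probe sets (rows) in 7 comparisons (columns); red is higher in the first-named treatment, blue lower, and an asterisk marks at least 2-fold with the brighter value at least 4 times the floor. The PKCi column against anti-TCR alone holds Nfkbiz at -2.89 and Bcl3 at -2.25 beside Tnfaip3 at 1.57.

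The comparison of anti-TCR alone with mock addresses the response to the receptor itself. Of 8 measured member probe sets 6 rose (Nfkb2, Relb, Bcl3, Nfkbib, Nfkbiz and Malt1) and 1 fell (Traf1), where 12.9% of all 7452 measured probe sets with 1 symbol rose and 13.8% fell. The median log2 ratio of the 8 was 2.19, against -0.06 over all measured probe sets. Nfkb2, Relb, Bcl3, Nfkbib and Nfkbiz read below 4 times the floor with mock, so they were measured only through the anti-TCR array. The shares over all probe sets follow the same rule. The members were chosen with earlier results of these data known, so these counts and those below describe the set and do not test it.

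The inhibitor arms were each set against the same anti-TCR array, so these 3 comparisons share it. With CSA, 3 of 8 measured probe sets fell (Nfkb2, Bcl3 and Nfkbib) and 0 rose, where 5.7% of 7015 fell and 5.12% rose. The median was -0.54, against 0.02 over all measured probe sets. None of these 3 falls reached 3-fold.

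With PKCi 3 of 9 fell (Bcl3, Nfkbiz and Malt1) and 2 rose (Birc2 and Tnfaip3), where 10.5% of 7469 fell and 14.4% rose. The median was -0.49, against 0.02. With Combo 1 of 10 fell (Nfkbiz) and 2 rose (Traf1 and Tnfaip3), where 5.85% of 7244 fell and 8.08% rose. The median was 0.35, against 0.02. With so few probe sets, neither these Combo counts nor the 2 rises with PKCi are set apart from the background shares.

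The inhibitor arms were also set against mock. Without an arm of inhibitor and no anti-TCR, a remaining response and an effect of the drug itself cannot be told apart. With CSA 3 of 7 measured probe sets were higher than mock (Relb, Bcl3 and Nfkbiz) and 1 was lower (Traf1), where 10.2% of all were higher and 7.77% lower. With PKCi 4 of 7 were higher (Nfkb2, Relb, Nfkbib and Tnfaip3) and 0 lower, against 8.06% and 3.72%. With Combo 6 of 9 were higher (Nfkb2, Relb, both Bcl3 probe sets, Nfkbib and Tnfaip3) and 0 lower, against 9.63% and 6.06%. All the members named as higher read below 4 times the floor with mock, so they were measured only through the inhibitor array.

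Among the 6 probe sets that rose with anti-TCR alone, the median share of the log2 rise left was 63.0% with CSA (38.5% to 131%), 56.2% with PKCi (-2.15% to 88.3%) and 102% with Combo (48.6% to 124%). The lowest shares were those of Nfkbib and Nfkb2 with CSA, with Malt1 close behind (54.3%), and of Malt1 and Nfkbiz with both PKCi and Combo. The shares of Nfkbiz depend on the floor, since its mock value lies below it. The 6 probe sets were selected on the same anti-TCR and mock arrays that form the divisor of the share. An anti-TCR value that is high by noise thus both admits a probe set and lowers its shares, so the shares are a description only.

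**Figure D4:**
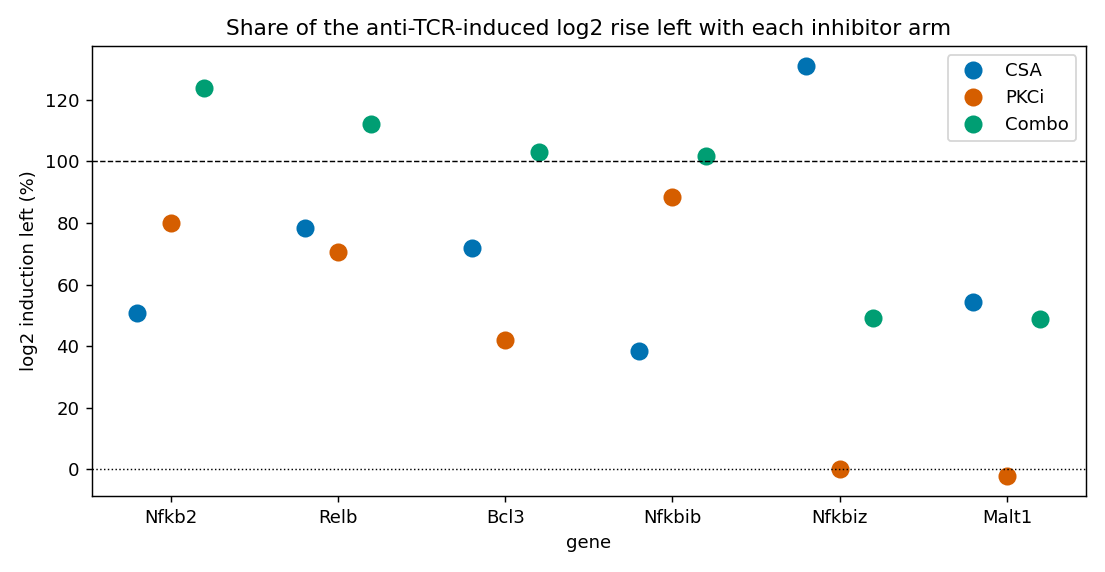
Share of the log2 rise with anti-TCR alone that was left in each inhibitor arm, for the 6 genes that rose; the dashed line is the full rise and the dotted line the mock level. Combo points lie above the full rise for Nfkb2, Relb, Bcl3 and Nfkbib, and at 49.1% for Nfkbiz and 48.6% for Malt1.

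Other genes of the pathway were read from 4 lists of 58 genes, of which 52 had a probe set, 1 probe set per gene. Of the other Rel and IkB genes, 3 of 5 were measured with anti-TCR alone against mock, and 1 rose, where 11.4% of all measured genes did. This was Nfkbid, which encodes the nuclear IkB protein IkBNS and read 2553.3 with CSA, 679.9 with PKCi, 3167.9 with Combo, 6298.5 with anti-TCR alone and 574.8 with mock. It rose 11.0-fold with anti-TCR alone, and fell 2.47-fold with CSA and 9.26-fold with PKCi against anti-TCR alone. Rela, the subunit p65, read 2504.7 with anti-TCR alone and 1323.3 with mock (log2 ratio 0.92), and the inhibitor gene Nfkbia, on an f-suffixed probe set, 14305.2 and 9438.8 (0.60). Rel was below the floor in all 5 arrays, at most 27.6; a probe set that fails to bind its target reads the same, so this does not give the level of Rel.

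Of the signalling genes, a list that includes the IkB kinase genes and TNF receptor adaptors, 11 were measured with anti-TCR alone against mock. Among these 1 rose and 1 fell, with a median log2 ratio of -0.11. Of 5803 measured genes 11.4% rose and 13.9% fell, with a median of -0.08. Traf5, a TNF receptor adaptor, rose at least 19.0-fold, and fell against anti-TCR alone in all 3 arms, 6.89-fold with CSA, 7.95-fold with PKCi and 2.20-fold with Combo. Tab2, an adaptor of the kinase TAK1, fell 2.22-fold with anti-TCR alone. With CSA, the adaptor gene Traf2, on an i-suffixed probe set, fell 2.34-fold against anti-TCR alone and 2.54-fold against mock, and Prkcq, which encodes protein kinase C theta, fell 2.45-fold against mock. Map3k14, which encodes NIK, read 1287.2 with PKCi, 1019.6 with Combo and 466.3 with anti-TCR alone, 2.76-fold and 2.19-fold higher with the inhibitors. The brakes on the pathway gave 1 rise among 7, Tnip2, a partner of A20, at 1130.1 with anti-TCR alone and 282.7 with mock (4.00-fold); it fell 2.03-fold with Combo against anti-TCR alone.

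Reported NF-kB target genes rose in 9 of 16 measured cases and fell in 2 with anti-TCR alone against mock (median log2 ratio 2.64), where 11.4% of 5803 measured genes rose and 13.9% fell with a median of -0.08. The cytokine Csf2 rose at least 32.7-fold, the chemokine Ccl3 at least 26.7-fold and, on an s-suffixed probe set, lymphotoxin alpha (Lta) at least 24.5-fold; Tnf fell 2.52-fold and, on an r-suffixed probe set, Plk3 18.1-fold. These targets are also induced through other factors, NFAT and AP-1 among them. The target list was likewise chosen with earlier results of these data known, so its counts are a description and not a test.

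With CSA, 8 of 17 measured targets fell and 3 rose against anti-TCR alone (median -0.61), where 5.34% of 5453 measured genes fell and 4.84% rose. The falls were led by Csf2 (11.1-fold), Lta (8.67-fold) and the factor Irf4 (5.65-fold), and the rises were Ccl4 (9.16-fold), Tnf (6.72-fold) and Cd69 (2.39-fold). With PKCi, 10 of 16 fell and 1 rose (median -2.06), where 9.75% of 5793 fell and 14.3% rose. Csf2 and Ccl3 fell at least 32.7-fold and at least 26.7-fold, to below the floor, and Lta fell 22.5-fold, while Tnf rose 2.57-fold. With Combo, 5 of 17 rose and 3 fell (median -0.25), where 7.95% of 5621 rose and 5.46% fell. Tnf rose 13.4-fold, Ccl4 10.9-fold and the adhesion gene Icam1 4.18-fold, and Lta, Csf2 and Tnfrsf9 fell 5.11-fold, 4.23-fold and 2.67-fold.

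**Figure D5:**
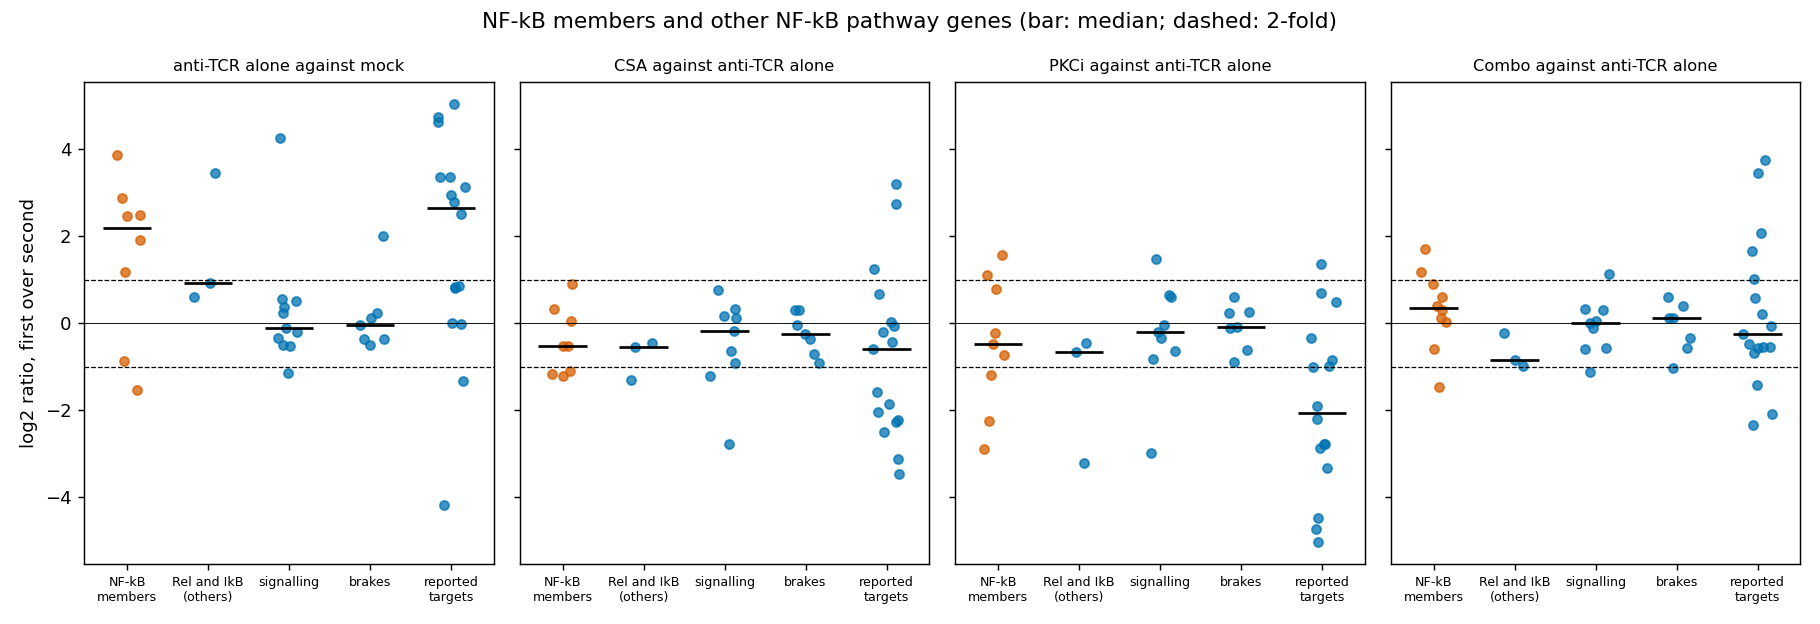
Log2 ratios of measured NF-kB members (orange) and of other pathway genes by list (blue) in 4 comparisons; each point is a gene's probe set, the bar is the median and the dashed lines mark 2-fold. With PKCi against anti-TCR alone the median of the reported targets is -2.06 and that of the members -0.49.

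For the 5 members whose probe set spanned at least 4-fold over the treatments, the nearest profiles were sought among 696 genes with a bright probe set of the same span, by the root mean square difference of centred log2 values over the 5 treatments. With 5 points, and genes read on the same or another chip type, this is a description only. Values below the floor were set to it first, so genes below it in the same treatments match there by construction. Nfkbiz lay nearest to Maff, a small Maf factor (0.18), which read 1003.2 with CSA, 34.2 with PKCi, 248.1 with Combo, 472 with anti-TCR alone and 41.1 with mock on chip type B; the PKCi and mock values of both genes were below the floor, so 3 of the 5 points carry the comparison. Med14 (0.38, r-suffixed) and Errfi1 (0.42) followed. Bcl3 lay nearest to Tnfsf11, the cytokine RANKL (0.35), Socs1 (0.47) and Jak3 (0.47, s-suffixed). Relb lay nearest to Mrps6 (0.18), Hormad2 (0.19, i-suffixed) and Map2k3 (0.27), and Nfkb2 to Tubb5 (0.21, f-suffixed), Nfil3 (0.28) and Hormad2 (0.31). Tnfaip3 had no profile as close, with Rex1bd at 0.49, Anapc5 at 0.53 (s-suffixed) and Adprhl2 at 0.55.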

How the data were processed

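Expression arrays of 15 hybridisations, 5 treatments on chip types A, B and C, were analysed. The authors deposited array intensity values per probe set; they are linear, with none below 0. Within a chip type the 2% trimmed means differed by at most 0.242%, which shows prior scaling to a common level. Its method and software are not stated in these sources. Groups came from the array titles. The platform annotation gave 1 symbol for 29131 probe sets, several for 724 and none for 6846; the last 2 kinds were left out. Ratios were formed within a chip type after raising values to its median. No test was made, because every treatment has a lone array on each chip type; the number of arrays limits the precision.

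All members are described on each probe set. For the pathway lists a gene was read on its brightest probe set by mean intensity, and at most the 3 highest and 3 lowest called genes of a list were named per comparison, besides Rela, Nfkbia and Rel, named after their values were seen. The members and lists were chosen with earlier results of these data known. Alternatives were median scaling, quantile normalization, 0.5 and 2 times the floor, a minimum of 8 or 3 times the floor, no suffixed probe sets, a 3-fold limit, and the mean of the bright probe sets of a gene. The code for the calls was tried on simulated data with planted changes above the 2-fold limit, in bright probe sets. The simulated noise was smaller than the technical SD. The motif search was tried on a short constructed sequence and its reverse complement. These trials check the code and give no rate of false calls for these data. Python 3.11.15, NumPy 2.4.6, pandas 2.3.3 and matplotlib 3.10.9 were used.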

Additional observations from a re-analysis of the deposited data

How the results depend on the processing

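No paired analysis was possible because each treatment was hybridised once to each chip type. With a 3-fold limit, 0 member probe sets were called with CSA against anti-TCR alone (3 at 2-fold). With this limit 2 were called with PKCi (5) and 1 with Combo (3). Over all probe sets with 1 symbol, it called 108 higher and 181 lower of 7015 with CSA. For PKCi these were 428 and 384 of 7469, and for Combo 146 and 125 of 7244. Called pathway genes at 3-fold were 6 with Combo against anti-TCR alone (11) and 2 with PKCi against mock (4). No share over all genes was formed at this limit. With a minimum of 8 times the floor, 3 member probe sets were called with PKCi against anti-TCR alone (5). Against mock, 2 were called with CSA (4) and 2 with PKCi (4). Over all probe sets with 1 symbol, this minimum gave 576 higher and 481 lower of 3901 with PKCi against anti-TCR alone. Against mock it gave 408 and 311 of 3651 with CSA, and 314 and 136 of 3636 with PKCi. The other counts of member and pathway calls stayed within 1.5 times their value under every alternative run for them. The median shares of induction left stayed within the spread between members. Of 58 measured member log2 ratios, 0 changed sign where called; 2 moved by more than the technical SD with 0.5 times the floor and 8 with 2 times the floor, and 0 with median scaling or quantile normalization. Signal over background limits Nfkbiz, Bcl3 and Tnfaip3 most, since their mock values lie near or below the floor.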
